A study of Mus musculus with 2 samples.

Results

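Serpins are a family of protease inhibitors and related proteins, and the set described here is every gene of the ovary count table whose symbol starts with Serpin. There were 63 such genes among 24421, and each matched a gene of the mouse annotation. Serpina3h, Serpina4-ps1 and Serpinb10 are annotated there as pseudogenes, Serpinb10 as a polymorphic one, and are counted among the genes here. The study asked which ovarian genes depend on H19, an imprinted long noncoding RNA, by sequencing total RNA of whole ovaries depleted of ribosomal RNA. It holds 2 libraries from untreated C57BL/6J mice aged 8 weeks, 1 wild type and 1 H19KO, whose description reads H19(Δ3). How many animals went into each library is not given in the sources used here, and the age and strain are shared by both. With 1 library per genotype there is no replicate check and no p-value, and every difference is between these 2 libraries. The members were chosen by symbol, but the family was picked with the ratios of these libraries already known, so the ratios are a description and support no claim about the family.

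An inhibitory serpin offers a protease an exposed stretch of its chain, the reactive centre loop, as bait. When the protease cuts the loop, the serpin changes shape and traps the enzyme for good. The family is divided into clades named by letter. Clade a holds secreted proteins such as α1-antitrypsin and the antichymotrypsin-like Serpina3 genes, which have multiplied in rodents. Clade b proteins mostly stay inside the cell. The others include the thrombin inhibitor antithrombin (c), inhibitors of thrombin and plasminogen activators (e), the C1 inhibitor (g), neuroserpin (i) and some members that inhibit no protease, such as the collagen chaperone encoded by Serpinh1 (h). In the ovary, serpins and plasminogen activators are best known for the controlled breakdown of the follicle wall at ovulation.

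Counts summed to 23335131 for the wild type and to 23041225 for the knockout. H19 had 672 and 0 counts in this order, which is kept for all pairs of counts below. A count of 0 is taken to allow 3 counts, or 0.130 CPM (counts scaled to a library of fixed size), so H19 was at least 223-fold lower, as the genotype label says. The ovarian markers were present in both libraries: all 6 granulosa, 5 theca and steroidogenic and 6 oocyte markers reached a mean of 1 CPM. Ratios below are log2 ratios of scaled counts, knockout over wild type, each followed by its 95% exact interval. That interval covers counting error only. A gene is called higher or lower when its mean is at least 1 CPM and its whole interval lies beyond 2-fold, a fixed rule of size and not a test. In bulk tissue, more cells of a type and more RNA per cell cannot be told apart.

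Of the 63 serpin genes, 17 had a mean of at least 1 CPM and are called measured below. Of the other 46, 11 had no count in either library. Measured genes were found in clades a, b, c, e, f, g, h and i, and the single clade d gene, Serpind1 (heparin cofactor II), had 1 and 0 counts. The whole family took 52110 and 53774 counts, which is 0.223% and 0.233% of all counts. Of the 17 measured genes, 2 were higher beyond 2-fold and 0 lower. Over all 13928 measured genes, 0.610% were higher and 0.388% lower by the same rule. Both higher members, Serpina3f and Serpina3n, belong to the Serpina3 cluster. Serpina3f, at 0.516 and 6.36 CPM, reached the minimum only through the knockout, so its call gives no direction for the family. Counted by the side of 0 on which the interval lay, 10 of the 17 were above, 5 below and 2 spanned it, where 22.2% of all measured genes were above, 24.0% below and 53.8% spanned it. Abundant genes have narrow intervals, so these shares also depend on level. The median ratio of the 17 was 0.26, against -0.01 for all measured genes, and it was 0.14 for the 13 outside the Serpina3 cluster.

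The Serpina3 genes lie together on chromosome 12 (mm10, 104112724 to 104414329, a span of 302 kb), and 11 of them are in the table. The upstream windows of the 4 measured genes are shown first, because these genes differ most from each other in their ratios. Each is the 250 bases before the RefSeq start on GRCm38.p6, which has the mm10 coordinates, read along the strand of the gene. Capitals mark the STAT-binding pattern TTCNNNGAA where it occurs.
Serpina3c, chr12:104153873-104154122, minus strand: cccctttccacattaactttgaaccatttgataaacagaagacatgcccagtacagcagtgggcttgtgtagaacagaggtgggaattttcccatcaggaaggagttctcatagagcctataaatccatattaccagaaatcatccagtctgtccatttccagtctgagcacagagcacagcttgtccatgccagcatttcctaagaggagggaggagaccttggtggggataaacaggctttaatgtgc
Serpina3f, chr12:104214294-104214543, plus strand: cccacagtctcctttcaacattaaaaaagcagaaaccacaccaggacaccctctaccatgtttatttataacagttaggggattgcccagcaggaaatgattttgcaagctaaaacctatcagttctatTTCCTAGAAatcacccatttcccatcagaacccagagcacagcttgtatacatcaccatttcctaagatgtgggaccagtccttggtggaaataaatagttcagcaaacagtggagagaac
Serpina3g, chr12:104235897-104236146, plus strand: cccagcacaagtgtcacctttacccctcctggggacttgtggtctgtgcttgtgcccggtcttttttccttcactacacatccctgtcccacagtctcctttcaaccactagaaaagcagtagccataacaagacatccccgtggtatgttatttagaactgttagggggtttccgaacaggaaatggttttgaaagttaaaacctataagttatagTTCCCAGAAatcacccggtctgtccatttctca
Serpina3n, chr12:104406458-104406707, plus strand: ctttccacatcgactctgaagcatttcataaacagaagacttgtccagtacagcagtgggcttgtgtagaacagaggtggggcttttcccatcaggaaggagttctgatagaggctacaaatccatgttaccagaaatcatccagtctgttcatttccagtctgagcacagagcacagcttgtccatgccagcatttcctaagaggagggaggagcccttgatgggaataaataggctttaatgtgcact
The windows of Serpina3c and Serpina3n were 90.5% identical in a global alignment. That of Serpina3f was 61.0% identical to the Serpina3c window and 60.6% to the Serpina3n window. RefSeq gives Serpina3f a further start downstream, whose window overlaps the printed window and holds the same capitals.

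Serpina3f had 12 and 147 counts, or 0.516 and 6.36 CPM. Its ratio was 3.57 (2.77 to 4.61), the 4th highest of all measured genes, a set it enters only through its knockout level. Serpina3n, the cluster gene usually likened to human antichymotrypsin and an inhibitor of leukocyte proteases, had 27 and 140 counts, or 1.16 and 6.05 CPM, with a ratio of 2.36 (1.78 to 3.03). Both were scarce in wild-type ovary, and their knockout levels were similar to each other.

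Serpina3g, known as Spi2A, an interferon-inducible inhibitor that acts inside cells on cysteine cathepsins, was the most abundant member of the cluster. It had 667 and 798 counts, a ratio of 0.27 (0.12 to 0.42). Serpina3c had 452 and 231 counts, or 19.4 and 9.99 CPM, a ratio of -0.96 (-1.20 to -0.73), so it was lower in the knockout with an interval that reached past 2-fold on its far side only. The 7 remaining cluster genes were below 1 CPM. Among them Serpina3a had 26 and 12 counts and the pseudogene Serpina3h 6 and 4, and the other 5 had at most 4 counts in either library.

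The summed counts of the cluster were 1196 and 1341, a ratio of 0.17 (0.06 to 0.29). This is near the ratio of Serpina3g, which carries most of the counts, and nearer 0 than those of Serpina3c, Serpina3f and Serpina3n. Serpina3c supplied 37.8% of the cluster's wild-type counts (exact binomial interval 35.0% to 40.6%) and 17.2% of its knockout counts (15.2% to 19.4%). Serpina3f supplied 1.00% (0.52% to 1.75%) and 10.96% (9.34% to 12.8%), and Serpina3n 2.26% (1.49% to 3.27%) and 10.4% (8.85% to 12.2%). The share of Serpina3g was 55.8% (52.9% to 58.6%) and 59.5% (56.8% to 62.1%). Without Serpina3f and Serpina3n the summed counts were 1157 and 1054, a ratio of -0.13 (-0.25 to -0.00).

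**Figure D1:**
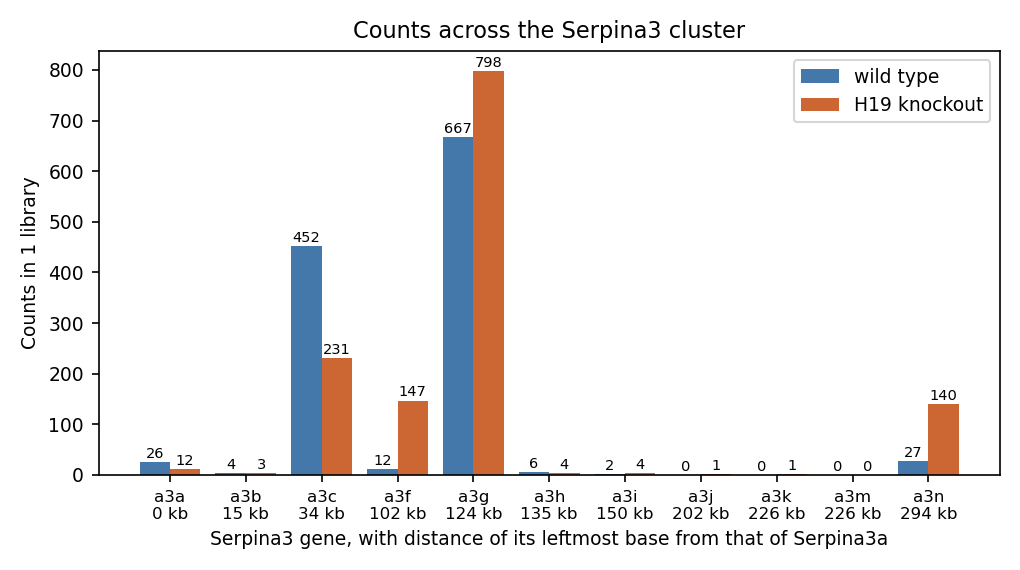
Counts in each library (y axis) for the 11 Serpina3 genes in chromosome order, with the distance in kb of each gene's leftmost base from that of Serpina3a. Serpina3c is lower in the knockout (452 and 231), Serpina3f (12 and 147) and Serpina3n (27 and 140) are higher, and Serpina3g carries most counts in both libraries.

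Genes this alike can share reads, so the annotated transcripts were compared. Windows of 76 bases, the read length, were looked up in the transcripts of all other genes on both strands. Of the windows of Serpina3f, 5.29% also occurred in another gene, chiefly Serpina3i. The share was 7.51% for Serpina3g, 1.41% for Serpina3n and 0.281% for Serpina3c. The longest coding transcripts of Serpina3f and Serpina3g were 71.4% identical over their length and those of Serpina3c and Serpina3n 73.7%. How reads that fit several genes were counted is not given in the sources used here.

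The upstream windows were searched on both strands for 3 patterns, TTCNNNGAA (STAT), the core of the interferon-stimulated response element (GAAA, any 2 bases, GAAA) and TTGCNNAA (C/EBP). RefSeq windows were found for 52 of the 63 serpin genes. The STAT pattern occurred in 10 of their 61 windows, which belong to 8 genes, and in 7.02% of all 32851 windows of that length. Windows of the same gene can overlap and hold the same match. The 3 Serpina3 genes with it were Serpina3f (TTCCTAGAA, chr12:104214423-104214431), Serpina3g (TTCCCAGAA, chr12:104236114-104236122) and Serpina3i (TTCCCAGAA, chr12:104263020-104263028), whose ratios were far apart or, for Serpina3i with 2 and 4 counts, not measurable. The pattern was not in the printed window of Serpina3n, which was higher, or in that of Serpina3c, which was lower. The response element pattern occurred in 2.98% of all windows and in 2 serpin genes, both of clade b. Serpinb9 had it as TTTCACTTTC at chr13:33004495-33004504, inside the annotated gene, which starts at 33003250. Serpinb6a had it as TTTCGATTTC at chr13:34002869-34002878, where it overlaps a STAT pattern (TTCCGGGAA). These 2 matches are printed along the strand of the gene, so the pattern itself lies on the other strand. The C/EBP pattern occurred in 15 of the 61 serpin windows, which belong to 12 genes, Serpina3f and Serpina5 among them, and in 9.56% of all windows. A match is a run of letters and no evidence of binding.

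Part of the interferon-gamma response list was higher in the same library. Of its 13 measured genes, 8 had an interval above 0 (all measured genes: 22.2%) and 5 spanned it. By the 2-fold rule 4 were higher (all measured genes: 0.610%) and 0 lower, and the median was 0.86. Among those higher, Iigp1 had a ratio of 3.05, Gbp2 1.73 and the class I transactivator gene Nlrc5 1.49. The kinase gene Jak1, also an abundant member of the list, had -0.03 (-0.06 to 0.01). In the acute phase and STAT3 list, 1 of 14 measured genes was higher, Lcn2, which encodes the siderophore-binding lipocalin 2, with 72 and 223 counts (1.63, 1.25 to 2.04). The 14 had a median of 0.03, and the 3 most abundant of them, Il6st, Stat3 and Lifr, had 0.14, -0.08 and 0.05. Hepatocytes also make Serpina3 proteins. Of 7 hepatocyte markers in the table Fgb was at 0 in both libraries, Alb, Ttr and Fga were at 0 in the wild type, with knockout counts of 1, 1 and 2, Apoh had 1 and 0, and only Apoa1 (672 and 949) and Ahsg (38 and 50) reached 1 CPM. The summed marker level was 30.6 and 43.4 CPM. The 6 macrophage markers were all present, with 5 intervals above 0 (all measured genes: 22.2%) and 1 below (24.0%). Their summed level was 391 and 490 CPM. The marker below 0 was Csf1r, with 1451 and 1223 counts (-0.24, -0.35 to -0.13). Of 5 fibroblast and stroma markers, 4 intervals were above 0 (all measured genes: 22.2%) and 1 spanned it (53.8%). Their median was 0.45 and their summed level 1236 and 1726 CPM. Of 5 surface epithelium markers, 4 intervals were above 0 and 1 below, with a median of 0.31. Of 4 oviduct markers, 2 were measured. The oviduct glycoprotein gene Ovgp1 was higher, with 33 and 134 counts (2.01, 1.47 to 2.63). The other, Sox17, had 216 and 178 counts (-0.27, -0.57 to 0.02). Below the minimum, Pax8 had 9 and 9 counts and Foxj1 11 and 3. The summed level of the 4 was 11.6 and 14.0 CPM, and only Ovgp1 had more counts in the knockout. The part of interferon response genes, macrophages, stroma, surface epithelium and oviduct in the Serpina3 ratios was not tested.

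The rest of clade a has 14 genes, of which only Serpina5 was measured. It encodes the protein C inhibitor, a heparin-binding serpin of blood and the reproductive tract. Serpina5 had 3458 and 2110 counts, or 149 and 91.2 CPM, a ratio of -0.70 (-0.78 to -0.63). Of all measured genes, 2.24% had a ratio as low or lower. The gene is on chromosome 12 (104101113 to 104106137, plus strand), and the next serpin along the chromosome is Serpina3a. The 6 granulosa markers were lower too, with all 6 intervals below 0 (all measured genes: 24.0%). Their median was -0.58 and their summed level 1579 and 1069 CPM. Of 5 theca and steroidogenic markers, 4 intervals were below 0 and 1 above, with a median of -0.06. Of 6 oocyte markers 5 were below and 1 spanned 0, with a median of -0.31. Of 5 endothelial markers 4 were below and 1 above, with a median of -0.18. The macrophage and stroma lists lay mostly above 0. The part of granulosa cells or of any other cell type in the Serpina5 ratio was not tested. The corticosteroid-binding globulin gene Serpina6 had 13 and 9 counts. The 6 α1-antitrypsin genes (Serpina1a to Serpina1f) together had 8 and 10 counts. Apart from Serpina1f, which shares no 76-base window with another gene, they have 18.7% (Serpina1b) to 73.3% (Serpina1c) of their windows in common with other genes, mostly each other. The remaining clade a genes had at most 3 counts in either library.

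Clade b was higher in the knockout library by a modest amount in every abundant member. Of its 27 genes, 5 were measured and none was beyond 2-fold. Of the 5, 4 had an interval above 0 (all measured genes: 22.2%) and Serpinb8 spanned it. The share of all measured genes with a ratio as high or higher ran from 7.78% for Serpinb6a to 25.7% for Serpinb9 and 35.5% for Serpinb8. Serpinb6a, an intracellular inhibitor of trypsin-like and cathepsin G-like enzymes, had 8294 and 11123 counts (0.43, 0.39 to 0.47). Its relative Serpinb6b had 2593 and 3129 (0.28, 0.20 to 0.35). Serpinb1a, an inhibitor of neutrophil elastase, had 1275 and 1611 (0.35, 0.24 to 0.45). Serpinb9, the inhibitor that shields cells from granzyme B, had 1544 and 1688 (0.14, 0.04 to 0.24). These 4 lie on chromosome 13 between 32842092 and 34002794. Serpinb8, an inhibitor of furin on chromosome 1, had 89 and 93 counts (0.07, -0.36 to 0.51).

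Together the 27 clade b genes had 13835 and 17699 counts, a ratio of 0.36 (0.33 to 0.40). They made up 26.5% of all wild-type serpin counts and 32.9% of those in the knockout. Serpinb6a overlaps Nqo2, Ripk1 and 1110046J04Rik on the opposite strand and shares 21.9% of its 76-base windows with them, and the strand setting of the counting is not given. Those neighbours had smaller or less certain ratios, Nqo2 0.18 (0.07 to 0.29), Ripk1 0.15 (0.07 to 0.23) and 1110046J04Rik, with 45 and 70 counts, 0.64 (0.08 to 1.22). Below 1 CPM, Serpinb9b had 17 and 19 counts and Serpinb1b 7 and 8. The other 20 clade b genes had fewer than 10 counts in all, among them the maspin gene Serpinb5, with 1 and 2, and Serpinb2, the plasminogen activator inhibitor of macrophages, with 1 and 1.

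The list of cysteine proteases reached by intracellular serpins lay mostly above 0. All 9 cysteine proteases of the list were measured, 8 had an interval above 0 (all measured genes: 22.2%) and 1 spanned it. The median was 0.52, with 0 beyond 2-fold. Abundant genes have narrow intervals, so such shares also depend on level. The cathepsin genes Ctsl, Ctsb and Ctsz had ratios of 0.20 (0.17 to 0.22), 0.30 (0.27 to 0.33) and 0.52 (0.45 to 0.58). Granule proteases were scarce. Of 13 listed, 2 were measured, Gzmb with 22 and 43 counts (0.96, 0.20 to 1.79) and the mast cell gene Cpa3 with 16 and 35 (1.11, 0.25 to 2.09). Both reach a mean of 1 CPM only through the knockout, so they give no direction for the list. Below the minimum, Gzma had 18 and 28 counts, Cma1 16 and 18, Tpsb2 17 and 16 and Gzmm 14 and 15, each with an interval that spanned 0. The neutrophil genes Elane and Ctsg, targets of Serpinb1a, were at 0 in both libraries, which allows up to 3 counts each.

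Antithrombin, Serpinc1, was scarce, with 63 and 31 counts, or 2.71 and 1.34 CPM, a ratio of -1.003 (-1.68 to -0.37). Its interval is wide, and 32.5% of its windows are shared with Zbtb37 on the opposite strand, which had 569 and 705 counts (0.32, 0.16 to 0.48). The antiplasmin gene Serpinf2 had 6 and 5 counts. Of 9 measured genes in the coagulation and protein C list, 4 had an interval above 0 (all measured genes: 22.2%), 3 below (24.0%) and 2 spanned it. The list had a median of 0.14 and 0 beyond 2-fold. Its 3 most abundant genes, the protein S gene Pros1, the tissue factor pathway inhibitor gene Tfpi and the thrombin receptor gene F2r, had ratios of 0.21, 0.47 and -0.24.

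In clade e, Serpine2 was abundant and slightly lower in the knockout, and Serpine3 had no count. Serpine2 (protease nexin-1, an inhibitor of thrombin and of plasminogen activators) had 9399 and 8480 counts, a ratio of -0.14 (-0.18 to -0.10). Neuroserpin, Serpini1, which also inhibits tissue plasminogen activator, had 264 and 315 counts (0.26, 0.02 to 0.50), and Serpini2 had 0 and 2. Of 8 measured genes of the plasminogen activator system, 5 had an interval above 0 (all measured genes: 22.2%), 2 below (24.0%) and 1 spanned it. The median was 0.16, with 0 beyond 2-fold. The receptor gene Lrp1, which clears serpin-protease complexes, had a ratio of 0.10 (0.07 to 0.14), and Anxa2 and S100a10, which bind tissue plasminogen activator at the cell surface, had -0.06 and 0.22. The activator genes Plau and Plat had 0.56 (0.49 to 0.63) and 0.25 (0.16 to 0.33). The lowest ratio of the list was that of Vtn, with 95 and 51 counts (-0.88, -1.41 to -0.38). The plasminogen gene Plg had 1 and 0 counts. Of 7 measured genes among the other serine proteases 1 was higher, Prss35, with 25842 and 57292 counts (1.16, 1.14 to 1.18), while Htra1 and Prss23 had 0.18 and -0.34.

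Serping1, the C1 inhibitor, had 3088 and 4136 counts, or 133 and 179 CPM, a ratio of 0.43 (0.36 to 0.50). This was as large a ratio as that of Serpinb6a, and 7.83% of all measured genes had a ratio as high or higher. The genes of the C1 complex lay on the same side. The protease gene C1s1 had 4154 and 5925 counts (0.52, 0.46 to 0.58), C1qb 0.34 (0.26 to 0.43) and C1qa 0.36 (0.27 to 0.45). Of 8 measured genes in that list, 6 had an interval above 0 (all measured genes: 22.2%) and 1 below (24.0%), and the median was 0.35. The gene below was Bdkrb2, the bradykinin receptor, with 47 and 11 counts (-2.04, -3.18 to -1.12), the only member with its whole interval beyond 2-fold. The lectin pathway protease gene Masp2 had 13 and 46 counts (1.79, 0.92 to 2.84), and its wild-type level was below 1 CPM. The contact proteases had next to no counts: F12 had 0 and 0, Klkb1 2 and 3, and F11 2 and 1.

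Serpinh1 and Serpinf1, which inhibit no protease, were abundant and their ratios were near 0. Serpinh1 (HSP47), which helps procollagen fold in the endoplasmic reticulum, was the most abundant serpin, with 16560 and 15183 counts and a ratio of -0.12 (-0.15 to -0.09). It supplied 31.8% of all wild-type serpin counts and 28.2% of those in the knockout. Most of its client and partner genes lay above 0 or spanned it. Of 15 procollagen folding genes, 7 had an interval above 0 (all measured genes: 22.2%), 1 below (24.0%) and 7 spanned it. The median was 0.06, and Col3a1, Sparc and P4hb had ratios of 0.56, 0.16 and 0.19. The gene below 0 was the prolyl hydroxylase gene P4ha1, with 3570 and 3256 counts and a ratio of -0.12. Serpinf1 (PEDF, an anti-angiogenic factor) had 4093 and 4290 counts, a ratio of 0.08 (0.01 to 0.14), and Pnpla2, which encodes a PEDF receptor, had 0.20 (0.08 to 0.32). Angiotensinogen, which is a serpin of clade a by structure although its symbol is Agt, had 4040 and 3104 counts (-0.37, -0.44 to -0.30). In that list of 7 measured genes, 5 intervals were above 0 (all measured genes: 22.2%) and 2 below (24.0%). The other gene below 0 was the reelin receptor gene Lrp8 (-0.82, -0.90 to -0.74).

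**Figure D2:**
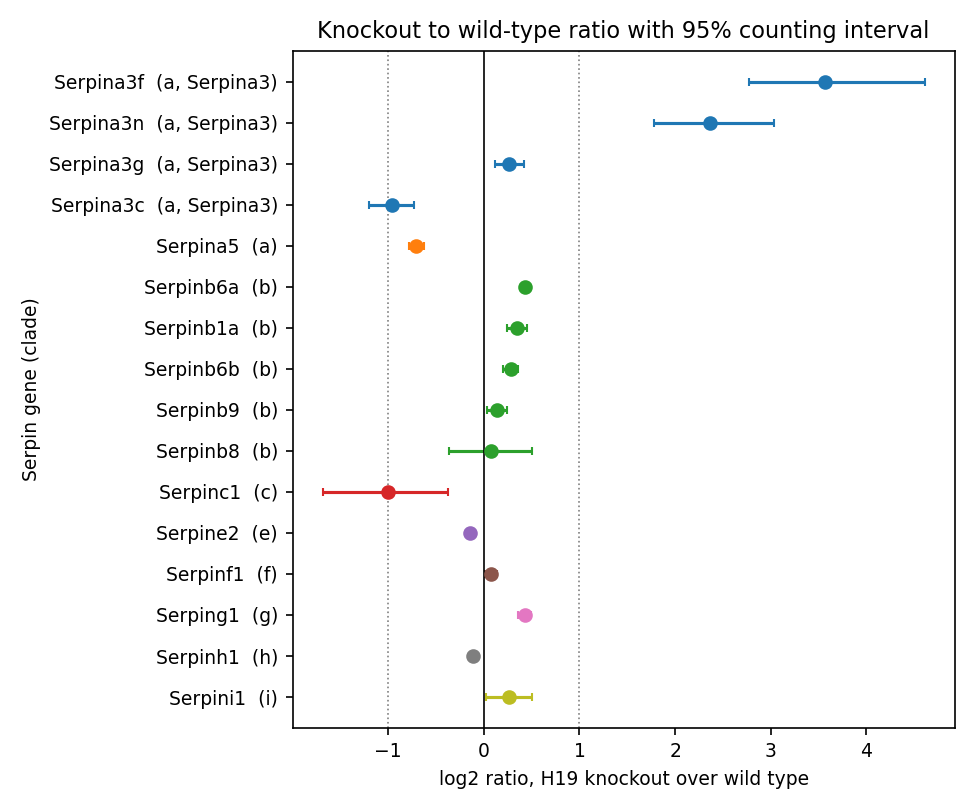
Log2 ratio of knockout to wild-type scaled counts (x axis) for 16 of the 17 measured serpin genes, grouped by clade (colour); bars are 95% exact counting intervals and dotted lines mark 2-fold. The 2 genes wholly beyond a dotted line are Serpina3f (3.57) and Serpina3n (2.36), while the 5 clade b genes lie between 0.07 and 0.43.

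Levels of different genes were compared per kilobase of exon. Serpinh1 led in both libraries, with a wild-type level of 292 CPM per kb and a knockout level of 269. In the wild type Serpinf1 (74.6), Serpina5 (68.8), Serpinb6a (65.9), Serping1 (57.1), Serpinb6b (49.3) and Serpine2 (48.8) followed. In the knockout the order was Serpinb6a (88.9), Serpinf1 (78.6), Serping1 (76.9), Serpinb6b (59.8), Serpine2 (44.3) and Serpina5 (42.2). Serpina5 was thus 3rd and 7th, but 6th and 7th with the longest transcript as the length. Serpina3f was last of the 17 in the wild type, at 0.225 CPM per kb, and 13th in the knockout, at 2.78. With 1 library per genotype the spread over animals is unknown, so neighbours in this order cannot be called different. With that length, 10 of the 17 knockout places stayed the same, and Serpine2 was 3rd in both libraries.

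**Figure D3:**
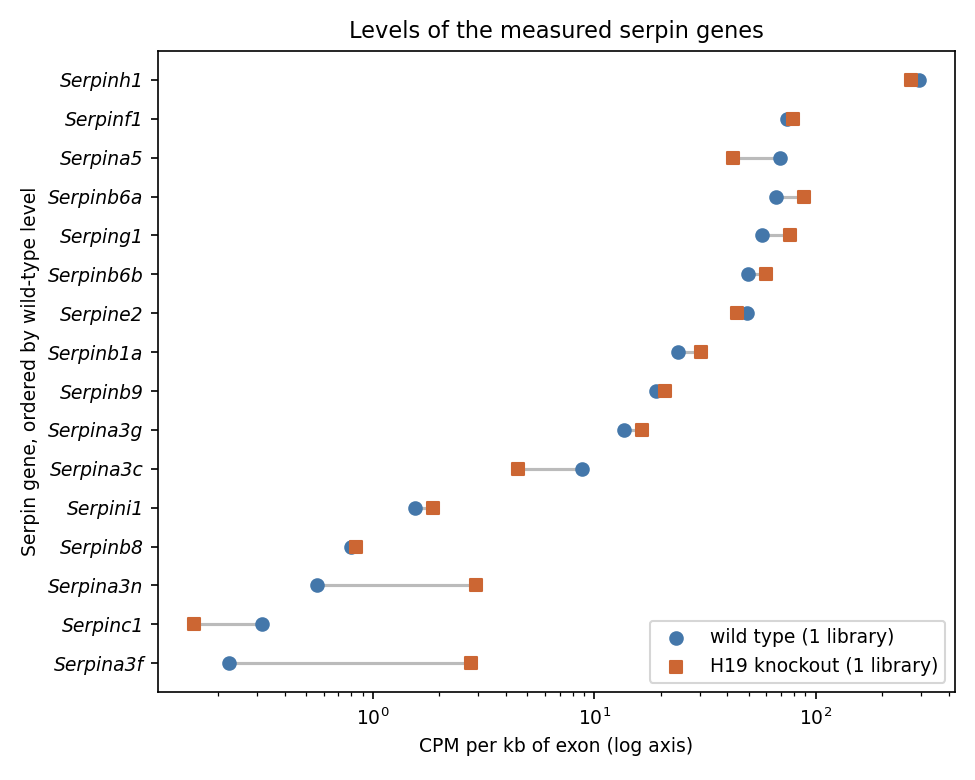
Level in CPM per kb of exon (log axis) of 16 of the 17 measured serpin genes in the wild-type library (circles) and the knockout library (squares), ordered by the wild-type level. Serpinh1 is highest in both (292 and 269), and the longest grey lines belong to Serpina3f (0.225 and 2.78) and Serpina3n (0.563 and 2.93).

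Outside the Serpina3 cluster, the summed ratios were 0.43 for clade g, 0.36 for b, 0.27 for i, 0.08 for f, -0.12 for h, -0.70 for a without the cluster and -1.003 (-1.68 to -0.37) for c. Clades c, g and h are 1 gene each, so a clade value there is a gene value. Clade d, with 1 and 0 counts, is under the floor and has no ratio, and clade e is given by Serpine2 alone, at -0.14. In the Serpina3 cluster the 4 measured genes ran from -0.96 to 3.57 with a median of 1.31. That median turned to -0.35 with a minimum of 5 CPM, which leaves out Serpina3f and Serpina3n, and was 0.56 with no minimum. Serpina3f reached 1 CPM only through its knockout level. In clade b the 5 measured genes ran from 0.07 to 0.43 with a median of 0.28.

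**Figure D4:**
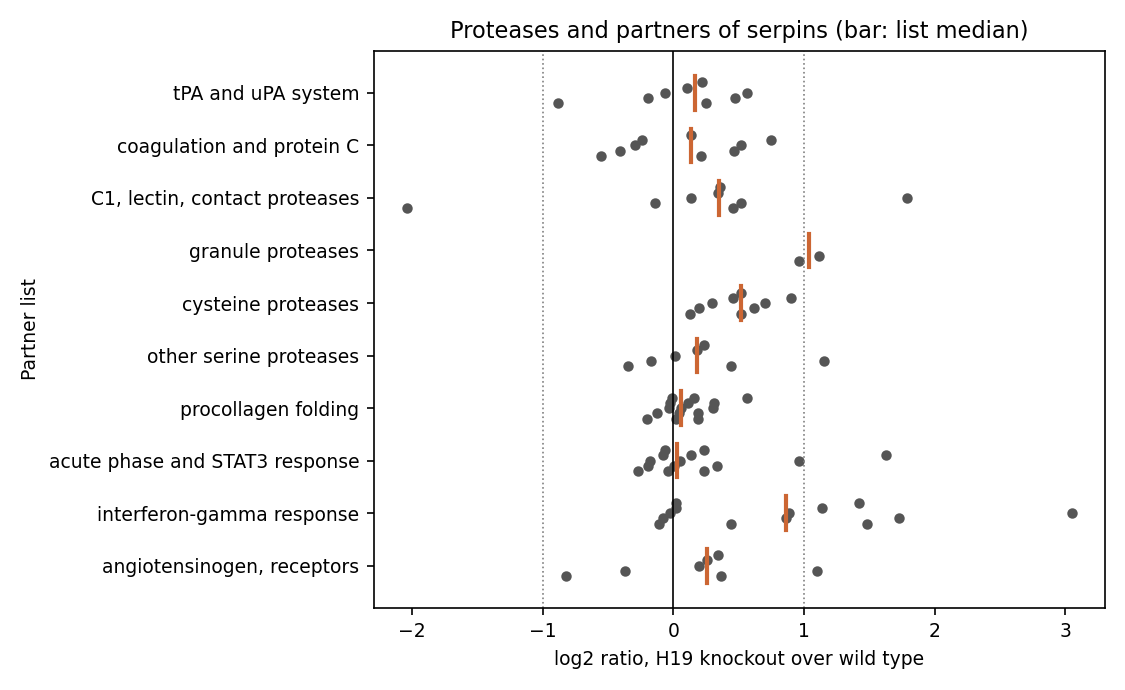
Log2 ratio of knockout to wild-type scaled counts (x axis) of each measured gene (grey points) in 10 lists of proteases, cofactors and response genes linked to serpins, with the list median as a bar and dotted lines at 2-fold. The interferon-gamma list holds the point farthest right (Iigp1, 3.05, with a list median of 0.86). The procollagen folding list has a median of 0.06 and runs from -0.20 to 0.56. The granule protease list has only 2 measured genes (median 1.04), both measured only through the knockout.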

How the data were processed

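Whole-number counts per gene symbol were deposited by the authors for 1 wild-type and 1 H19KO ovary library. Per the labels' protocols, libraries were stranded, made after removal of ribosomal RNA and sequenced with paired ends and 76 cycles. Per the submitters' processing notes, STAR 2.5.0a, Cufflinks 2.2.1, DESeq2 1.0.0 and mm10 were used; the sources used here give no roles, annotation or counting settings. The median-of-ratios size factors of the columns are equal, as they would be after DESeq2 scaling, yet no whole number below 527 (wild type) or 937 (knockout) is missing, as it would be after scaling up by more than a small factor. Whether the authors rescaled before rounding is thus not known; if so, ratios carry that scaling, and the intervals and the floor of 3 counts are approximate.

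Libraries were scaled by TMM (edgeR 4.0.16; R 4.3.3) and ratios computed with 0.5 added to each count. Intervals are 95% exact conditional binomial (Clopper-Pearson), computed with scipy 1.17.1 in Python 3.11.15 and checked on simulated Poisson counts. There they held the true ratio at the nominal rate for unchanged genes but somewhat less often for changed ones. Changed genes of few counts were often not called. The recovery limit first set was missed and was replaced by one for genes of higher counts only. The interval assumes such counts, with no spread between animals, so the rate for unchanged genes was nearly fixed in advance. PCR copies are not independent molecules, so intervals and the floor of 3 counts cover counting error only. Positions and exon lengths came from GENCODE M21, upstream sequences from RefSeq (GRCm38.p6). No protein sequences were used here.

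Members and lists were chosen with earlier results of these data known. Every serpin of at least 1 CPM is named but 1, those below with at least 10 counts in all are given by counts (others with fewer counts were named after their values were seen), and each partner list gives its 3 most abundant measured genes and all beyond 2-fold but 1; the 2 exceptions are counted but their values are not reported here. Nqo2, Ripk1, 1110046J04Rik, Zbtb37, P4ha1, Plg, Elane, Ctsg, F11, F12, Klkb1, Masp2, Gzma, Cma1, Tpsb2, Gzmm, Ovgp1, Sox17, Pax8, Foxj1, Csf1r, Plau, Plat and Vtn were added after their values were seen. The interval counts of the theca, oocyte, endothelial and surface epithelium lists were also added then. The cell type markers were used to describe levels and ratios beside the serpin results.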

Additional observations from a re-analysis of the deposited data

How the results depend on the processing

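Other scalings left 2 serpins higher and 0 lower. All 68 recomputed values of single members, from these scalings and from 5 added to each count, stayed inside their intervals. The scalings shift every ratio alike and by little, so for them this was nearly fixed in advance. Serpinh1, at -0.117, had -0.125 with median-of-ratios and -0.107 with total count scaling. With a minimum of 5 CPM the higher count was 0, because Serpina3f and Serpina3n average less, the median of the Serpina3 cluster was -0.35 and that of the other serpins 0.26, and Bdkrb2 dropped out, leaving 0 lower in its list. The point ratio gave 1 lower serpin, with 1.48% of all genes higher and 0.883% lower. The 1.5-fold limit gave 2 lower serpins (1.80% and 1.21%) and the 4-fold limit 1 higher (0.115% and 0.0503%). With no low count filter, medians were 0.56 for the Serpina3 cluster, 0.27 for the other serpins, 0.01 for the rest of clade a (0.0080), 0.43 for clade b, -0.0786 for clade f and 1.30 for clade i, since genes of a few counts enter. By longest transcript, 10 knockout places were kept. No paired analysis was possible because there is 1 library of each genotype, and none could be left out. Depth matters most for scarce genes: from 1 to 2 CPM the median width of the interval was 1.53 log2 units.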
